A study of Mus musculus with 5 samples.

Results

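The interleukin-3 receptor and the JAK-STAT5 pathway below it were followed through 10 genes, chosen by symbol among the 50867 genes of the deposited table. They are IL3RA and CSF2RB, JAK1 and JAK2, STAT5A and STAT5B, and the target genes PIM1, CISH, OSM and MYC. Expression was measured by RNA sequencing in 5 libraries of Ba/F3, a mouse pro-B cell line that is kept alive in culture by interleukin-3. The cells of every library, the reference PMSCV included, had been infected with lentivirus. The labels give 1 library each for S_PXT1_K118R, S_PXT1, WT_K118R, WT and PMSCV. PMSCV names a retroviral vector and is the reference. K118R is a lysine to arginine substitution, and the labels do not spell out S or WT. The sources used here name neither the construct promoter, nor the number of clones, nor the cytokine in the medium. With 1 library a group, no difference below has a replicate check, and no p-value is given.

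Interleukin-3 binds an alpha chain, encoded by IL3RA, which pairs with the beta chain CSF2RB that the receptors for interleukin-5 and GM-CSF also use. Mice carry a further beta chain gene, Csf2rb2, whose product serves interleukin-3 alone. The beta chain holds the kinase JAK2, which phosphorylates STAT5A and STAT5B. The STAT5 proteins then enter the nucleus and switch on survival and growth genes together with CISH, an inhibitor that feeds back on the receptor. In Ba/F3 cells this pathway stands between survival and death, and the line is widely used to ask whether an introduced oncogene can take its place.

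The table names human gene models, with human identifiers and positions, although the labels give mouse cells. A count is therefore a tally of reads per human model as deposited, and how many reads of a mouse transcript reach such a model was not tested. Whether the table was made from these Ba/F3 libraries alone cannot be settled from the sources used here, so every value below is one of the library as labelled in the table. Levels between genes are given only as FPKM, that is per length of the human model. A count of 0 is read as at most 3 counts. It does not show that a gene was silent.

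Totals lay between 250409 and 351693 counts, so that a single count equalled 2.92 to 3.93 CPM, the unit in which counts are set relative to an effective library size (trimmed mean of M values). S_PXT1_K118R and S_PXT1 stood apart, with at least 1 count for 7044 and 7393 genes, against 11504 in WT_K118R, 11712 in WT and 11492 in PMSCV. Markers of epithelium divided the libraries in the same way. Their 14 genes, among them keratins and the kallikreins KLK2 and KLK3, summed to 0 counts in S_PXT1_K118R and 1 in S_PXT1, against 652 in WT_K118R, 1029 in WT and 425 in PMSCV. The 13 plasma cell, T cell and myeloid markers summed to 2 counts in each of the S_PXT1 libraries, against 46 in WT_K118R, 491 in WT and 649 in PMSCV. The 12 fibroblast, muscle and endothelial markers summed to 195 and 188 counts in S_PXT1_K118R and S_PXT1, against 601, 756 and 518 in WT_K118R, WT and PMSCV. Of 17 markers of B-cell precursors and blood cells, CD79A, CD79B, VPREB1, IGLL1, RAG1, RAG2 and DNTT were at 0 counts in all 5 libraries, PAX5 and EBF1 reached 1 count at most, and IKZF1 had 24 to 34. SPI1 had 1 count in WT_K118R and 113 to 173 in the other libraries. The labelled B-lineage identity could thus not be read from its defining markers on these models. The part that reads of other cell types have in the values below was not tested, and in bulk RNA fewer cells of a type and less RNA per cell cannot be told apart.

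The 2 STAT5 genes lie side by side and are nearly alike, which bears on how their reads can be divided. In GENCODE M21, on GRCm38, mouse Stat5a lies at chr11:100859351-100885169 on the plus strand and Stat5b at chr11:100780731-100850724 on the minus strand. Their coding sequences, of 2379 and 2358 bases, were identical at 90.7% of 2343 aligned bases. The first 120 coding bases, in which capitals mark the 24 differing bases, show a stretch where a read can be told apart.
Stat5a: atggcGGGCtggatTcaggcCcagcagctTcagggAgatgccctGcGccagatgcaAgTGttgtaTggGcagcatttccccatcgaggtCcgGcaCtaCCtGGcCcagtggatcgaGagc
Stat5b: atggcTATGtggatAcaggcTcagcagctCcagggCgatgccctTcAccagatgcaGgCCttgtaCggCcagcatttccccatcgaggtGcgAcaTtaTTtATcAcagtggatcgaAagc
The longest run without a difference covered 324 bases, coding positions 571 to 894 in both genes, and a mouse read inside it fits either gene equally well. Its first 100 bases, from 571 to 670, are shown for that reason.
Stat5a and Stat5b: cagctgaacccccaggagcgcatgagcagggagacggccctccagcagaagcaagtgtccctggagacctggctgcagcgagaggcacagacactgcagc
Of all windows of 50 aligned bases, 25.9% were identical. These are mouse sequences, and the human models of the table were not compared. Counts of STAT5A and STAT5B are for this reason uncertain one by one.

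STAT5 dimers bind the element TTCNNNGAA, which is the same on both strands. CISH is a classical STAT5 target, and its mouse promoter is shown because it carries that element in tandem. Within the RefSeq windows of GRCm38.p6, from 250 bases before to 50 after each gene start, the element was found in 8.3% of 32851 windows, and 0.457% held it more than once. Cish was among these. The stretch shown lies at chr9:107296654-107296683 on the plus strand, from position -5 to 25 about the annotated start. The elements, in capitals, lie at and after that start, and only the bases before them precede it.
Cish: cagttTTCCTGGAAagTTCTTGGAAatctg
Of the 8 mouse genes of the pathway matched in these windows, Cish and Csf2rb2 held the element, and the windows of Il3ra, Jak1, Jak2, Stat5a, Stat5b and Pim1 did not. Csf2rb and Osm were not matched, and Myc was not looked up. A match is a description of letters and not of binding.

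The receptor chains were at or near 0. IL3RA (ENSG00000185291, chromosome X, 1336616 to 1382689 in the table; the sources used here name no build for it) had no count in any of the 5 libraries. The limit of 3 counts equals 11.8 CPM in S_PXT1_K118R, 11.7 in S_PXT1, 8.89 in WT_K118R, 8.77 in WT and 10.7 in PMSCV. The exact Poisson 95% interval of a count of 0 ends somewhat higher, at 3.69 counts. CSF2RB (ENSG00000100368, chromosome 22, 36913628 to 36940449) had 0 counts in S_PXT1_K118R, 0 in S_PXT1, 1 in WT_K118R, 0 in WT and 1 in PMSCV. No library was above the limit of 3 counts for either chain, so no fold between libraries was taken. Among 15 receptor chains of blood cytokines, 2 had a count in each of the S_PXT1 libraries, against 7 in WT_K118R and 6 in both WT and PMSCV. Of all genes of the table, 13.8% had a count in S_PXT1_K118R and 14.5% in S_PXT1, against 22.6%, 23% and 22.6% in WT_K118R, WT and PMSCV. CSF2RA and IL5RA, the alpha chains of the GM-CSF and interleukin-5 receptors, were at 0 throughout. The 15 chains summed to 3 counts in S_PXT1_K118R and 3 in S_PXT1, against 21 in WT_K118R, 18 in WT and 23 in PMSCV. Over PMSCV the summed fold was 0.144 (95% counting interval 0.0277 to 0.477) in S_PXT1_K118R and 0.143 (0.0275 to 0.473) in S_PXT1. IL6ST, the shared chain of the interleukin-6 family, supplied 2 counts in each of these libraries, against 8, 8 and 9 in WT_K118R, WT and PMSCV. In S_PXT1_K118R and S_PXT1 over PMSCV, 2 chains passed the limit of 3 counts in a library. Both were at least 2-fold lower, beside 29.2% and 29.1% of all genes tested. The chain other than IL6ST was also lower in WT_K118R and WT than in PMSCV. The epithelial and fibroblast markers given above were likewise lower in the S_PXT1 libraries than in PMSCV, and their part in this difference was not tested.

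Of the Janus kinases, JAK1 was counted in all 5 libraries and JAK2 in none. JAK2 (ENSG00000096968, chromosome 9, 4985033 to 5128183), the kinase that the beta chain carries, had 0 counts in each library. JAK1 (ENSG00000162434, chromosome 1, 64833229 to 64966504), which serves many other cytokine receptors, had 4 counts in S_PXT1_K118R, 2 in S_PXT1, 11 in WT_K118R, 6 in WT and 3 in PMSCV. In scaled units these were 15.7, 7.80, 32.6, 17.6 and 10.7 CPM, so that WT_K118R was highest and S_PXT1 lowest. WT_K118R stood 3.06-fold above PMSCV, with a counting interval of 0.807 to 17.1 that includes no difference. Against their WT counterparts, S_PXT1_K118R had 0.482 (0.112 to 1.63) and S_PXT1 0.444 (0.0439 to 2.49) of the scaled JAK1 level. For the substitution, JAK1 was 2.02-fold higher (0.289 to 22.3) in S_PXT1_K118R than in S_PXT1 and 1.86-fold higher (0.63 to 6.12) in WT_K118R than in WT. None of these intervals excludes 1. The model overlaps RAVER2 on the opposite strand, which had 0 to 2 counts, and without a stated strand setting such reads cannot be told apart. TYK2, a relative of JAK1, had 2 counts in S_PXT1_K118R, 1 in S_PXT1, 6 in WT_K118R, 3 in WT and 3 in PMSCV, and JAK3 had 2 in WT_K118R and 0 elsewhere. The 4 kinases summed to 6, 3, 19 and 9 counts in S_PXT1_K118R, S_PXT1, WT_K118R and WT, against 6 in PMSCV, and the fold of 2.64 in WT_K118R over PMSCV had an interval of 1.01 to 8.07.

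**Figure D1:**
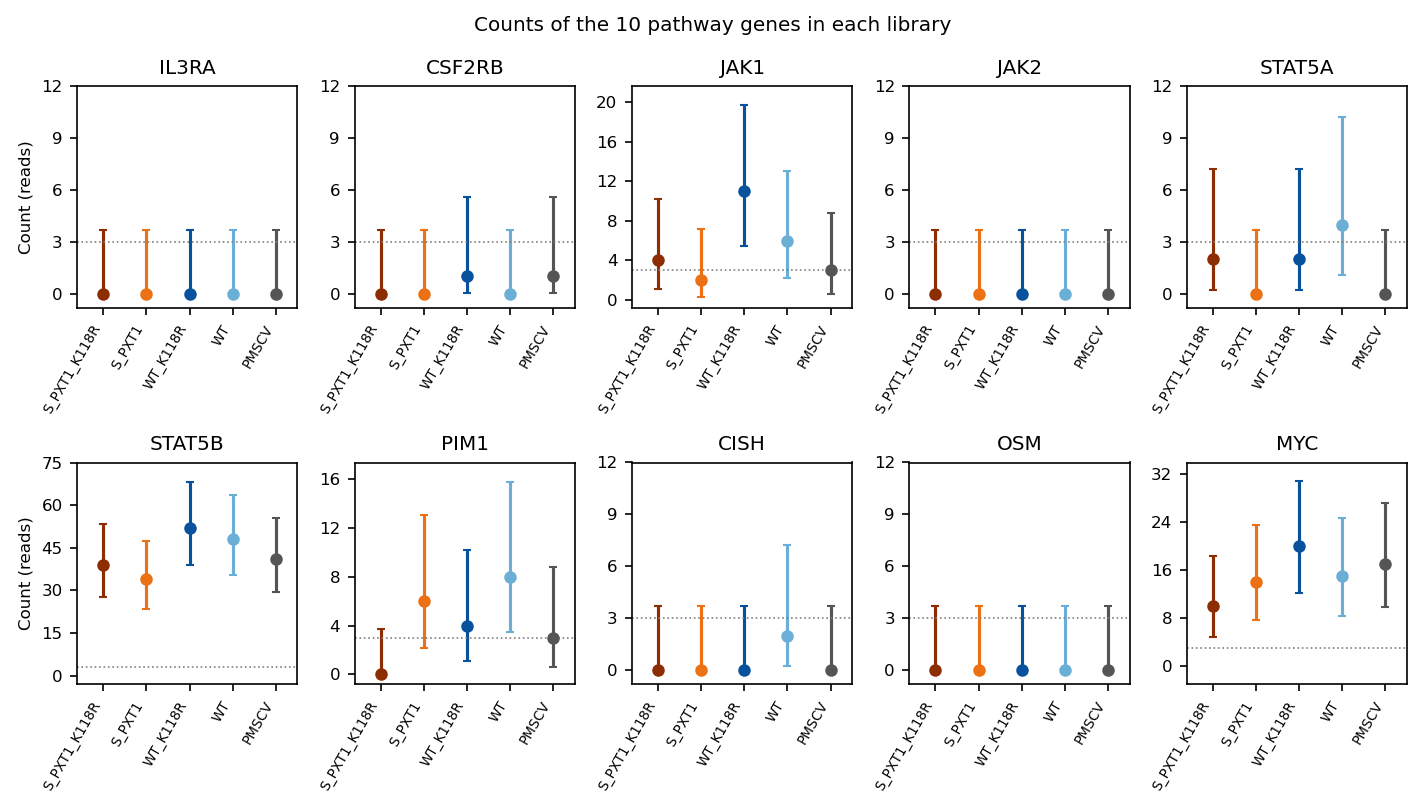
Counts of each of the 10 genes (vertical axis, reads, scaled separately in each panel) in the 5 libraries (horizontal axis). Points are counts, bars the exact Poisson 95% interval, which ends at 3.69 for a count of 0, and the dotted line the limit of 3 counts. STAT5B and MYC lie above that line in every library, whereas IL3RA, JAK2 and OSM lie at 0 in every library.

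STAT5B was the best covered gene of the pathway and differed little between libraries. STAT5B (ENSG00000173757, chromosome 17, 42199168 to 42276707) had 39 counts in S_PXT1_K118R, 34 in S_PXT1, 52 in WT_K118R, 48 in WT and 41 in PMSCV. After scaling the levels were 153, 133, 154 and 140 CPM in these construct libraries, against 146 CPM in PMSCV. The highest library exceeded the lowest 1.16-fold. Over PMSCV the fold was 1.05 (0.661 to 1.67) in S_PXT1_K118R, 0.909 (0.56 to 1.47) in S_PXT1, 1.06 (0.688 to 1.63) in WT_K118R and 0.963 (0.621 to 1.5) in WT. The substitution gave 1.16 (0.711 to 1.89) in S_PXT1_K118R over S_PXT1 and 1.1 (0.727 to 1.66) in WT_K118R over WT. All 8 intervals include 1 and lie between 0.56 and 1.89, so that none of them reaches 2-fold in either direction. The S_PXT1 libraries, where the epithelial markers were at 0 and 1 counts, thus lay within 1.16-fold of the others for STAT5B.

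STAT5A (ENSG00000126561, chromosome 17, 42287547 to 42311943), which lies beside STAT5B on human chromosome 17 too, had 2 counts in S_PXT1_K118R, 0 in S_PXT1, 2 in WT_K118R, 4 in WT and 0 in PMSCV. Only WT was above the limit of 3 counts, by a single read, and no order can be read from these values. With STAT5A and STAT5B summed, no comparison came to a 2-fold difference for the sum. Between genes, STAT5B had 16.7 to 19.8 FPKM and STAT5A 0 to 1.01 FPKM, subject to the shared sequence shown above.

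The other STAT genes did not all behave like STAT5B. STAT3, which answers the interleukin-6 family, had 25 counts in S_PXT1_K118R, 16 in S_PXT1, 30 in WT_K118R, 29 in WT and 27 in PMSCV, and its 8 intervals included 1. STAT2, a factor of type I interferon signalling, had 0, 1, 13 and 1 counts in S_PXT1_K118R, S_PXT1, WT_K118R and WT, against 6 in PMSCV, and was 13.2-fold higher (1.98 to 560) in WT_K118R than in WT. STAT6 had 5 to 14 counts, and STAT4 had 0 in all libraries. STAT2, STAT3, STAT4 and STAT6 are given as members of the STAT list, although STAT2, STAT4 and STAT6 are below the mean of 20 counts required of further named genes. The part that reads of other cell types have in the STAT2 values was not tested.

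**Figure D2:**
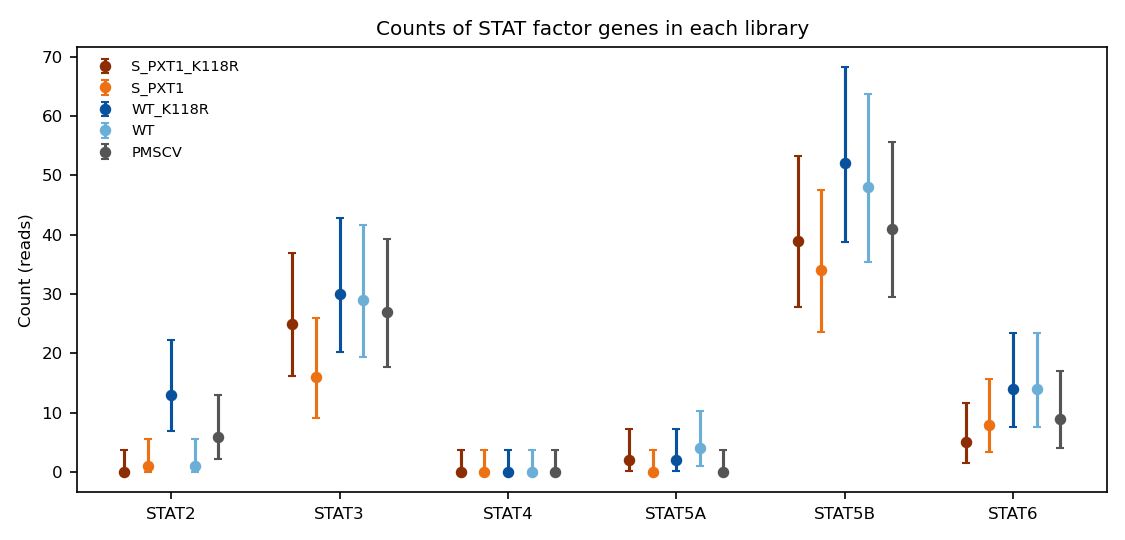
Counts of the STAT genes described in the text (vertical axis, reads) with exact Poisson 95% intervals in the 5 libraries (colours). STAT5B and STAT3 overlap across libraries, whereas STAT2 reaches 13 counts in WT_K118R and at most 1 count in both S_PXT1 libraries and WT.

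The kinase gene PIM1 was low in all libraries. PIM1 (ENSG00000137193, chromosome 6, 37170203 to 37175426), a survival kinase induced by STAT5, had 0 counts in S_PXT1_K118R, 6 in S_PXT1, 4 in WT_K118R, 8 in WT and 3 in PMSCV. The scaled level was 23.4 CPM in both S_PXT1 and WT and 11.9 CPM in WT_K118R, against 10.7 CPM in PMSCV, while the limit in S_PXT1_K118R was 11.8 CPM. Both libraries with the substitution were thus below their counterparts. Taking 3 counts for the 0, PIM1 was 1.98-fold lower in S_PXT1_K118R than in S_PXT1, a value that leaves out the counting error of the 6. In WT_K118R over WT the PIM1 fold was 0.507 (0.112 to 1.89). The difference in the S_PXT1 background, 0 against 6 counts, is the single comparison of any of the 10 genes whose counting interval excludes 1. In that comparison 12.9% of the 3674 genes tested had such an interval. S_PXT1 and WT, which share the reference library, were each 2.19-fold above PMSCV, with intervals of 0.468 to 13.5 and 0.526 to 12.8. PIM2 had at most 2 counts and PIM3 at most 4.

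CISH and OSM gave almost no reads. CISH (ENSG00000114737, chromosome 3, 50606490 to 50611831), the feedback inhibitor, had 0 counts in S_PXT1_K118R, S_PXT1 and WT_K118R, 2 in WT and 0 in PMSCV. MAPKAPK3, which overlaps it on the opposite strand, had 3, 0, 5 and 5 counts in the construct libraries, against 3 in PMSCV. OSM (ENSG00000099985, chromosome 22, 30262829 to 30266840), a cytokine gene that STAT5 induces, had 0 counts in all 5. Neither gene can show a difference at this depth. The related inhibitor SOCS3 was better covered, with 10 counts in S_PXT1_K118R, 14 in S_PXT1, 16 in WT_K118R, 17 in WT and 10 in PMSCV, and its 8 intervals included 1. SOCS3 was named after its values were seen.

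MYC was counted in every library at a similar level. MYC (ENSG00000136997, chromosome 8, 127735434 to 127741434), the growth transcription factor that interleukin-3 induces, had 10 counts in S_PXT1_K118R, 14 in S_PXT1, 20 in WT_K118R, 15 in WT and 17 in PMSCV. The scaled levels were 39.3, 54.6, 59.3 and 43.9 CPM in the construct libraries, against 60.5 CPM in PMSCV, a spread of 1.54-fold. S_PXT1_K118R was lowest, at 0.65 of PMSCV (0.266 to 1.5). The substitution gave 0.72 (0.286 to 1.74) in S_PXT1_K118R over S_PXT1 and 1.35 (0.658 to 2.84) in WT_K118R over WT. S_PXT1 was 1.24-fold above WT (0.556 to 2.76). All 8 intervals for MYC include 1, and some of them reach past 2-fold, so that smaller differences were not detectable at this depth.

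**Figure D3:**
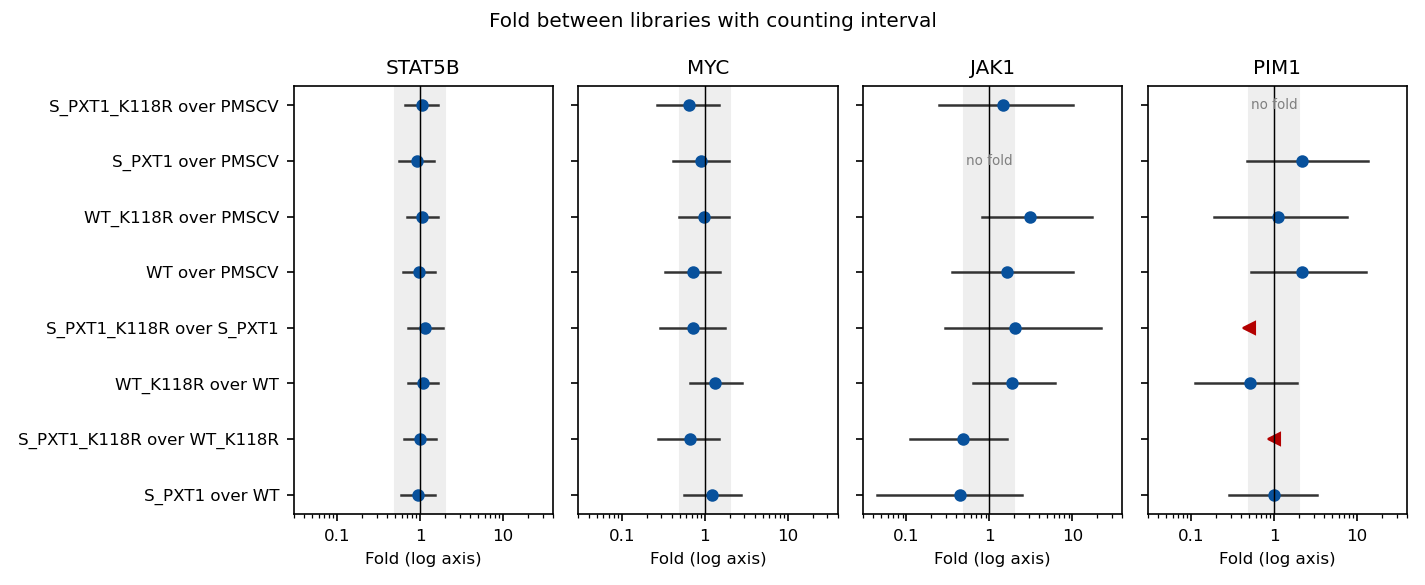
Fold between libraries (horizontal axis, logarithmic) for STAT5B, MYC, JAK1 and PIM1 in the 8 comparisons (vertical axis). Points are ratios of scaled counts, lines their 95% counting interval, triangles upper bounds where the first library had 0 counts, and the grey band 0.5-fold to 2-fold. The STAT5B intervals lie inside the band, and those of JAK1 and PIM1 are several times wider.

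In order of FPKM, STAT5B was the highest of the 10 genes in each library. MYC followed at 4.45 to 7.11 FPKM, PIM1 at 0 to 6.11 and JAK1 at 1.08 to 4.43, and these neighbours overlap. In S_PXT1 PIM1 and MYC stood at 6.11 and 6.02 FPKM, and in WT at 5.99 and 4.75 FPKM. STAT5A, CISH at up to 0.629 and CSF2RB at up to 0.418 FPKM came last, beside the 3 genes at 0. All 10 genes together had 55 counts in S_PXT1_K118R, 56 in S_PXT1, 90 in WT_K118R and 83 in WT, against 65 in PMSCV, or 216, 218, 267 and 243 against 231 CPM. STAT5B and MYC supplied most of these counts in every library.

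Counted against the background, 7 of the 10 genes passed the filter of a mean of 1 CPM. From 3 to 5 of them could be read in a given comparison, which required more than 3 counts in at least 1 of the libraries compared. Calls of 2-fold were made on log2(CPM + 1) with 0 counts set to 3, unlike the folds above. In S_PXT1_K118R over S_PXT1 JAK1, 2.02-fold by scaled counts, stood at 0.927 on that scale and PIM1 at -0.931. Neither was called there. In S_PXT1_K118R over PMSCV, 0 of 3 readable genes were 2-fold apart, beside 33.8% of all genes tested, 4.60% higher and 29.2% lower. In S_PXT1 over PMSCV PIM1 was 2-fold higher among 3, beside 4.41% of genes higher, 29.1% lower and 33.5% past 2-fold in either direction. In WT_K118R over PMSCV JAK1 was higher among 4, beside 10.4% higher, 15.3% lower and 25.7% in either direction. In WT over PMSCV PIM1 was higher among 5, beside 10.2% higher, 14.8% lower and 25.0% in either direction. For the substitution, 0 of 4 readable genes were called 2-fold apart in S_PXT1_K118R over S_PXT1, beside 19.1% of all genes, 9.34% higher and 9.77% lower. In WT_K118R over WT 0 of 5 were, beside 23.9% of all genes, 11.4% higher and 12.5% lower. In S_PXT1_K118R over WT_K118R JAK1 was lower among 4, beside 24.0% lower, 4.82% higher and 28.8% in either direction. In S_PXT1 over WT JAK1 was lower among 5, beside 24.3% lower, 4.07% higher and 28.4% in either direction. With 3 to 5 readable genes, a count of 0 or 1 does not stand apart from these shares. The median log2 ratio over the readable genes was 0.07, -0.14, 0.11 and 0.12 in S_PXT1_K118R, S_PXT1, WT_K118R and WT over PMSCV, beside -0.42, -0.37, 0.02 and 0.04 over all genes tested. Low counts weigh on those shares and medians. Over genes that averaged 20 counts or more, as STAT5B did, the medians were 0.16, 0.20, 0.10 and 0.11, and 11.4%, 11.3%, 5.56% and 5.37% of genes were past 2-fold.

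The wider list of 24 STAT5 targets held a few well-covered genes that differed. BCL2L1, the gene of the survival factor BCL-XL, had 8 counts in S_PXT1_K118R, 100 in S_PXT1, 90 in WT_K118R and 89 in WT, against 73 in PMSCV. SPRED2, an inhibitor of RAS signalling, was lowest in PMSCV. It had 37 counts in S_PXT1_K118R, 31 in S_PXT1, 46 in WT_K118R and 50 in WT, against 14 in PMSCV. The gene was 2.92-fold (1.54 to 5.85), 2.43-fold (1.25 to 4.94), 2.74-fold (1.48 to 5.39) and 2.94-fold (1.6 to 5.75) higher in these libraries, all set against the same PMSCV library. Its relative SPRED1 had 49 to 64 counts. The list summed to 165 counts in S_PXT1_K118R against 252 in PMSCV, a fold of 0.724 (0.591 to 0.884), with 1 of 14 readable genes higher and 5 lower, beside 4.60% and 29.2% of all genes. Without BCL2L1, a choice made after seeing the data, the other 23 genes summed to 157 against 179, a fold of 0.97 (0.778 to 1.21). In S_PXT1_K118R over S_PXT1 the list's fold was 0.674 (0.55 to 0.824), and 1.08 (0.855 to 1.36) without BCL2L1. By gene, in S_PXT1 over PMSCV 2 of 14 readable genes of the list were higher and 3 lower, beside 4.41% and 29.1% of all genes. The median log2 ratio of the list was -0.51, -0.24, 0.07 and -0.07 in S_PXT1_K118R, S_PXT1, WT_K118R and WT over PMSCV. MCL1, another survival gene, was picked once its values were known. It had 4 counts in S_PXT1_K118R and 3 in S_PXT1, against 31 in WT_K118R, 18 in WT and 24 in PMSCV. MCL1 was 5.43-fold (1.86 to 21.5) and 7.30-fold (2.22 to 37.9) lower in S_PXT1_K118R and S_PXT1 than in PMSCV. The epithelial markers are at 0 and 1 counts in the same libraries, and their part in this difference was not tested.

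The inhibitors of the pathway, 23 genes of SOCS proteins, phosphatases, PIAS proteins and adaptors that end signalling, summed to 1061, 1064, 1141 and 1141 CPM in S_PXT1_K118R, S_PXT1, WT_K118R and WT, against 1017 CPM in PMSCV. Every summed fold over PMSCV had an interval that included 1. The lists overlap: PTPN11 is also in the RAS and PI3K list, and CISH, SOCS1, SOCS2 and SOCS3 are also among the STAT5 targets. PIAS2, which can hold back STAT activity, supplied 185 of 270 counts in S_PXT1_K118R and 156 of 286 in PMSCV. PTPN2, a phosphatase that acts on JAK1 and JAK3, had 18 counts in S_PXT1_K118R, 6 in S_PXT1, 1 in WT_K118R, 4 in WT and 2 in PMSCV. It was 9.95-fold higher (2.38 to 88.4) in S_PXT1_K118R than in PMSCV and 3.03-fold higher (1.15 to 9.31) than in S_PXT1. PIAS2 and PTPN2 were named after their values were seen. Of the readable inhibitors 2 of 13 were higher and 4 lower in S_PXT1_K118R over PMSCV, beside 4.60% and 29.2% of all genes, with a median log2 ratio of -0.25. In S_PXT1 over PMSCV 2 of 12 were higher and 2 lower, beside 4.41% and 29.1% of all genes.

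The RAS and PI3K arms, which leave the same beta chain, gave counts for 24 of 36 genes in S_PXT1_K118R and 23 in S_PXT1, against 34 in WT_K118R, 31 in WT and 30 in PMSCV. Of all genes of the table, 13.8% and 14.5% had a count in S_PXT1_K118R and S_PXT1, against 22.6% in WT_K118R, 23% in WT and 22.6% in PMSCV. In S_PXT1_K118R over PMSCV 1 of 28 readable genes was higher and 8 were lower, beside 4.60% and 29.2% of all genes. In S_PXT1 over PMSCV 0 of 26 readable genes were higher and 10 were lower, beside 4.41% and 29.1% of all genes. Their median log2 ratio was -0.54, beside -0.37 over all genes. The summed fold there was 0.925 (0.837 to 1.02). In S_PXT1_K118R it was 0.881 (0.796 to 0.974) over PMSCV and 0.875 (0.794 to 0.965) over WT_K118R. PIK3CA, a catalytic subunit of PI3K, had 50, 47, 38 and 26 counts in S_PXT1_K118R, S_PXT1, WT_K118R and WT, against 38 in PMSCV. It was 2.41-fold higher (1.46 to 4.05) in S_PXT1 than in WT. FYN, a SRC-family kinase, had 31, 41, 50 and 23 counts in those 4 libraries, against 37 in PMSCV, and was low in WT, with 2.2-fold more (1.32 to 3.78) in WT_K118R. SOS1, a RAS activator, had 22, 21, 26 and 21 counts in the construct libraries, against 37 in PMSCV, and was 2.14-fold lower (1.22 to 3.85) in WT than in PMSCV.

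Around MYC, its partner MAX was better covered than MYC itself in every library. Its relative MYCN was better covered in S_PXT1_K118R, S_PXT1 and WT, but not in WT_K118R or PMSCV. MAX had 196 and 199 counts in S_PXT1_K118R and S_PXT1, 218 in WT_K118R and 244 in WT, against 168 in PMSCV, and stayed between 0.905-fold and 1.30-fold in all 8 comparisons. MAX was named after its values were seen. MYCN had 54 counts in S_PXT1_K118R, 26 in S_PXT1, 20 in WT_K118R and 24 in WT, against 16 in PMSCV. It was 3.73-fold higher (2.1 to 6.98) in S_PXT1_K118R than in PMSCV, 2.09-fold (1.29 to 3.48) higher than in S_PXT1 and 3.58-fold (2.11 to 6.32) higher than in WT_K118R. In WT_K118R over WT the MYCN fold was 0.845 (0.442 to 1.6). The difference between these folds of the substitution was not tested.

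Of 32 known MYC targets 31 were matched, and their sums were close in all libraries, at 7489, 7723, 8082 and 8104 CPM in S_PXT1_K118R, S_PXT1, WT_K118R and WT, against 7788 CPM in PMSCV. EIF5A, a translation factor named after its values were seen, supplied 1242 of the list's 1905 counts in S_PXT1_K118R and 1227 of 2190 in PMSCV. By gene, 1 of 28 readable targets was higher and 8 were lower in S_PXT1_K118R over PMSCV, beside 4.60% and 29.2% of all genes. In S_PXT1 over PMSCV 1 of 28 was higher and 12 were lower, beside 4.41% and 29.1% of all genes. The median there was -0.69 on the log2 scale, beside -0.37 over all genes, whereas the summed fold was 0.992 (0.933 to 1.05). In WT over PMSCV 1 of 28 was higher and 2 lower, beside 10.2% and 14.8% of all genes, with a median of -0.05. HSPD1, a mitochondrial chaperone, had 15 and 23 counts in S_PXT1_K118R and S_PXT1, against 69 in WT_K118R, 49 in WT and 52 in PMSCV, and was 3.14-fold (1.74 to 6.0) and 2.06-fold (1.24 to 3.53) lower in the first pair than in PMSCV. EIF4A1, a translation helicase, had 35, 21, 54 and 31 counts in S_PXT1_K118R, S_PXT1, WT_K118R and WT, against 57 in PMSCV. The table also lists a model that joins SENP3 and EIF4A1, which had 0, 28, 0 and 66 counts in these libraries, against 0 in PMSCV. EIF4A1 was thus low where the joined model had counts, and its difference is uncertain. TFRC, the transferrin receptor, had 4, 5, 12 and 12 counts in the construct libraries, against 132 in PMSCV.

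**Figure D4:**
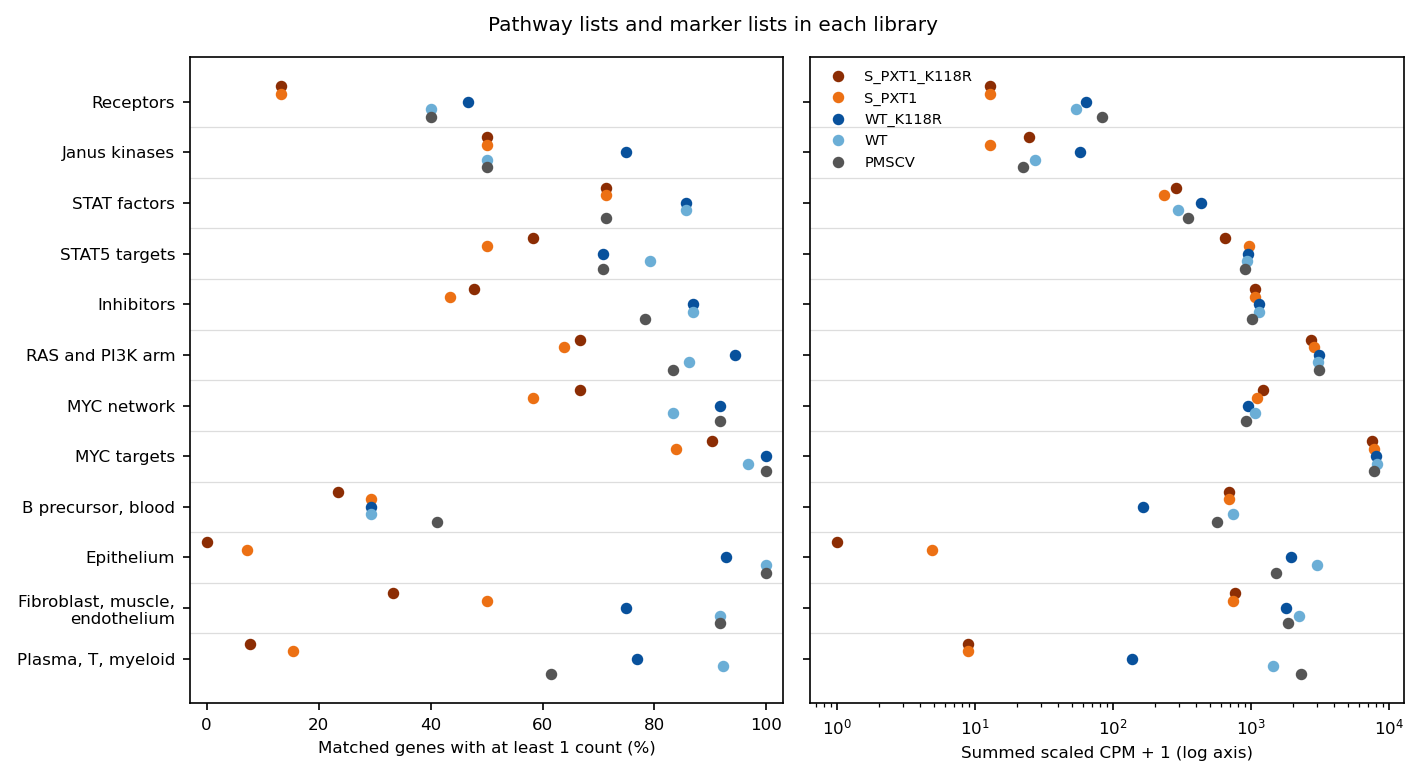
Pathway lists and marker lists (vertical axis) in the 5 libraries (colours), with the share of matched genes that had at least 1 count on the left (percent) and the summed scaled CPM plus 1 on the right (logarithmic axis). The summed inhibitors, RAS and PI3K genes and MYC targets lie close together in all libraries, whereas the epithelial list is at 0 and 1 counts in the S_PXT1 libraries.

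Across the 5 libraries the profiles most like that of STAT5B, among 1544 other genes that averaged 20 counts or more, were those of RYBP and BRK1. The measure was the root mean square difference of the centred log2 profiles, which was 0.03 for RYBP and 0.04 for BRK1, beside a median of 0.23. RYBP had 53 counts in S_PXT1_K118R, 46 in S_PXT1, 67 in WT_K118R, 63 in WT and 55 in PMSCV. A flat profile is common here, since 38.6% of those genes lay within 0.2 of STAT5B.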

How the data were processed

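RNA of Ba/F3 cells was sequenced in 5 libraries, 1 for each group of the labels. The authors deposited raw counts per gene and FPKM values side by side, per the file headers. Per the submitters' processing notes, FastQC, HISAT2 2.2.1 and cutadapt 1.9 were used, in roles the notes do not state. The sources used here name no counting tool, strand setting, build or annotation. The FPKM deposited equalled the count times 1 factor per gene and library for 99.99% of 30114 values, within 0.01 on the log2 scale, so the counts were used. There were 0 value columns without a library.

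Scaling used TMM factors over all 5 libraries (edgeR 4.0.16, R 4.3.3). A gene with a mean of 1 CPM or more entered, and was read in a comparison where 1 library or more had over 3 counts. A gene was called at 2-fold on log2(CPM + 1), with 0 counts set to 3. This scale understates differences of low genes. Folds in the text are ratios of scaled counts, with the exact Clopper-Pearson 95% interval of the split of both counts. Levels have exact Poisson intervals. Both kinds of interval, and the limits, reflect counting error alone, since reads lacking molecular identifiers may be copies of 1 molecule. The arithmetic was tested on simulated data. Python 3.11.15, scipy 1.17.1 and Biopython 1.88 were used. The Stat5a and Stat5b coding sequences were aligned globally.

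There were 8 comparisons, and those over PMSCV share that library. The 10 genes, the 12 lists and the naming rule were chosen with earlier results of these data known. Further genes were named where their mean was at least 20 counts and their difference was past 2-fold and among the 3 largest of their list in a family of comparisons. For likeness, the 2 nearest genes were taken for each of the 10 that averaged 20 counts or more, which was STAT5B alone. Of the names outside this rule, IL6ST, CSF2RA, IL5RA, TYK2, JAK3, PIM2, PIM3 and SPRED1 are not marked in the text. Other genes of the pathway lists whose values are given outside this rule are marked. A few list genes are not reported here. Of 202 list symbols, 201 were matched. Alternatives were other scalings (size factors of DESeq2 1.42.0, library totals), pseudocounts, filters, thresholds, FPKM, and summed STAT5 genes or overlapping models. Alternatives that leave out replicates do not apply.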

Additional observations from a re-analysis of the deposited data

How the results depend on the processing

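No paired analysis was possible because each group held 1 library and no test was made. The number of the 10 genes past 2-fold, 0 or 1 in each comparison, kept its value or lay within 1.5 times of it in 62 of 88 recalculations. The others were these. With DESeq2 size factors it was 0 in S_PXT1_K118R over WT_K118R. With library totals alone, with the deposited FPKM and with a pseudocount of 5 CPM it was 0 in S_PXT1 over PMSCV, WT over PMSCV and S_PXT1_K118R over WT_K118R, and with 5 CPM also in S_PXT1 over WT. With 0.1 CPM it was 1 in S_PXT1_K118R over S_PXT1. With a mean of at least 20 counts, which leaves STAT5B alone, and at 3-fold, it was 0 in each of the 5 comparisons that had 1. At 1.5-fold it was 1 in S_PXT1_K118R over PMSCV, 2 in WT over PMSCV, 2 in S_PXT1_K118R over S_PXT1 and 3 in WT_K118R over WT. The calls for PIM1 and JAK1 thus lie at the threshold or rest on few reads. Of 272 recalculated values outside these counts, single-gene log2 ratios and summed folds of the STAT5 targets, 268 stayed within their counting interval. Of the 264 log2 ratios, 15 changed sign, none of them past 2-fold (0.87 at most). Without BCL2L1 the summed fold left its interval in 4 comparisons. It was 1.08 against 0.674 with BCL2L1 in S_PXT1_K118R over S_PXT1, 0.848 against 1.03 in S_PXT1 over WT, 0.97 in S_PXT1_K118R over PMSCV and 0.898 in S_PXT1_K118R over WT_K118R. It also crossed 1 in S_PXT1 over PMSCV, at 0.9 against 1.07. Depth limits what can be read: 8 of the 10 genes had 3 counts or fewer in at least 1 library.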
